A study of Mus musculus with 21 samples.

Results

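The glucocorticoid receptor and its target genes were followed through 10 of the 21654 genes of the deposited count table, picked by gene symbol. They were the receptors *Nr3c1* and *Nr3c2* and the target genes *Fkbp5*, *Sgk1*, *Tsc22d3*, *Zbtb16*, *Klf9*, *Mt1*, *Mt2* and *Sult1a1*. Each symbol had a row in the table, and all 10 genes averaged at least 50 reads per library, the minimum for testing (High Filter), which 12768 genes passed.

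Glucocorticoids from the adrenal gland enter the brain and bind the receptor in the cytoplasm, where chaperones hold it ready for hormone. The bound receptor moves to the nucleus and acts on transcription, partly through direct contact with an imperfect palindrome in DNA. In the hypothalamus the hormone takes part in negative feedback on the stress axis and in the control of feeding, and its targets include genes that limit the response itself.

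The study used a diet switch (DS) to separate the effects of body weight from those of diet and energy balance. Male C57/B6J mice (C57BL/6J in the study's text), 12 to 14 weeks old when acquired, ate regular chow (RC) or a high-fat diet (HFD) for several weeks. Some then changed to the other diet for the last week, giving the groups RC → HFD (n = 6 libraries) and HFD → RC (n = 5), and the rest had no diet switch (NoDS), giving RC NoDS (n = 5) and HFD NoDS (n = 5). All mice were kept awake with unfamiliar objects for 3 h and killed at ZT6 or within the hour after it, in the middle of the light phase. Poly(A) RNA was sequenced from punches of the circumventricular hypothalamus, called the ventral hypothalamus (VH) by the study, and every library pooled the RNA of 2 animals on the same diet. No genetic change, drug or hormone was given, and no label recorded corticosterone, so in the labels the groups differ by diet history alone.

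Re-sampling by the authors had brought the libraries to nearly 1 depth. Totals ran from 16383073 to 16390286 reads in RC NoDS, from 16383705 to 16390551 in RC → HFD, from 16381363 to 16390598 in HFD → RC and from 16380781 to 16389102 in HFD NoDS. Libraries differed more in library complexity, taken as the share of zero counts among weakly expressed genes (means of 5 to 50 reads). The share averaged 3.22% ± 2.42 (SD, n = 5) in RC NoDS and 16.3% ± 9.93 (n = 5) in HFD NoDS, a difference with an exact two-sided permutation p of 0.00794 over 252 regroupings. Its mean was 11.9% in RC → HFD and 16.5% in HFD → RC. Markers of the sampled nuclei were present, with averages of 8304 reads for *Pomc* of the arcuate nucleus and 1250 for *Nr5a1* of the ventromedial nucleus. Of 4 markers listed for the paraventricular nucleus, *Avp* (10476 reads) and *Oxt* (4796), which are not confined to it, passed the filter, while *Sim1* (41.4) and *Crh* (8.14) did not.

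Scaled by exon length and library size (RPKM), the members spanned a wide range of levels. The metallothioneins were the highest, with mean levels over the 21 libraries of 310 RPKM for *Mt1* and 225 RPKM for *Mt2*, above 99.2% and 98.7% of the tested genes. *Klf9* (29.4 RPKM) and *Tsc22d3* (26.3 RPKM) came next, followed by *Nr3c1* (14.7 RPKM), *Fkbp5* (13.7 RPKM) and *Sgk1* (10.4 RPKM). *Sult1a1* (5.87 RPKM), *Zbtb16* (4.35 RPKM) and *Nr3c2* (4.16 RPKM) lay under the median of the tested genes, which was 8.88 RPKM. The ranges over libraries overlapped between all neighbours in this order except *Mt2* and *Klf9*. In RC NoDS, the glucocorticoid receptor had 15.9 ± 1.63 RPKM (SD, n = 5) and the mineralocorticoid receptor 4.25 ± 0.283 RPKM (n = 5), and the level of *Nr3c1* exceeded that of *Nr3c2* in every library of the 4 groups.

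*Nr3c1* (ENSMUSG00000024431), which encodes the glucocorticoid receptor, was the member that varied least between libraries, with 1786 reads on average. Its counts were 1882, 2233, 1960, 1885 and 1684 in RC NoDS (mean 1929 ± 198, SD, n = 5) and 1777, 1455, 1893, 1918 and 1645 in HFD NoDS (1738 ± 191, n = 5). In the switched groups they were 1698, 1775, 1855, 1734 and 1633 in HFD → RC (1739 ± 83.2, n = 5) and ran from 1682 through a median of 1751 to 1844 in RC → HFD (1747 ± 57.7, n = 6). Replicate 2 of RC NoDS held the highest count and replicate 20 of HFD NoDS the lowest, and the ranges of all 4 groups overlapped. The log2 fold change of HFD NoDS over RC NoDS was -0.13 (SE 0.0781, 95% interval -0.29 to 0.03, edgeR adjusted p 0.691), and that of HFD → RC over RC → HFD was -0.01 (SE 0.0749, 95% interval -0.16 to 0.15).

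*Nr3c2* encodes the mineralocorticoid receptor, which also binds corticosterone (ENSMUSG00000031618, chr8:79423341-79768911, plus strand, NCBIM37). Its counts lay between 418 and 497 in RC NoDS, between 332 and 525 in RC → HFD, between 357 and 538 in HFD → RC and between 327 and 592 in HFD NoDS. Means were 451 ± 30.1, 435 ± 80.1, 436 ± 80.0 and 447 ± 110 reads (SD) in the same order. The log2 fold change was 0.00 both for HFD NoDS over RC NoDS (95% interval -0.31 to 0.32) and for HFD → RC over RC → HFD (95% interval -0.30 to 0.31).

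**Figure D1:**
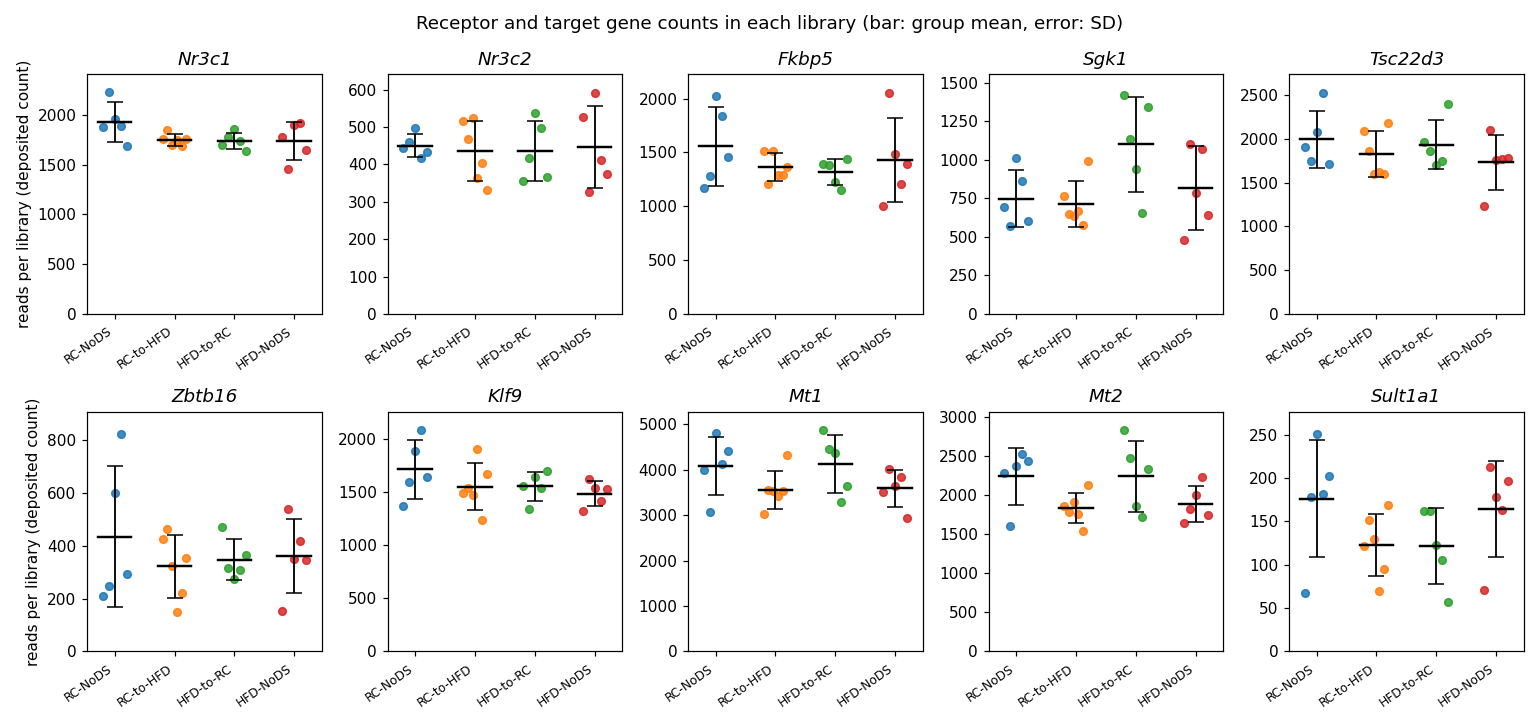
Deposited read counts of the 10 members in each of the 21 libraries by diet group, with dots for libraries, a bar for the group mean and error bars for the SD. *Sgk1* had its highest counts in HFD → RC, up to 1419 reads, *Zbtb16* ran from 150 to 821 reads, and *Nr3c1* stayed between 1455 and 2233 reads.

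*Sgk1* encodes a kinase that acts on ion channels and transporters (ENSMUSG00000019970, chr10:21601990-21719709, plus strand), and it had the smallest p of the members in 5 of the 10 comparisons. HFD → RC libraries held 1419, 1135, 940, 655 and 1343 reads (mean 1098 ± 311, SD, n = 5), and RC → HFD libraries ran from 575 through a median of 657 to 991 (713 ± 150, n = 6). Without a switch, the counts were 692, 570, 1010, 863 and 604 in RC NoDS (748 ± 185, n = 5) and 477, 1104, 787, 1067 and 643 in HFD NoDS (816 ± 270, n = 5). Replicates 13, 14 and 17 of HFD → RC exceeded every library of the other groups, while replicates 15 and 16 lay within the range of each other group. The log2 fold change of HFD → RC over RC → HFD was 0.62 (SE 0.198, 95% interval 0.22 to 1.03), with rank 63 of 12768 genes by p and an edgeR adjusted p of 0.789. Over RC NoDS it was 0.58 (SE 0.208, edgeR adjusted p 0.408), and HFD NoDS relative to HFD → RC gave -0.43 (SE 0.207, edgeR adjusted p 0.617). HFD NoDS differed from RC NoDS by 0.14 (SE 0.208, 95% interval -0.28 to 0.57), a value that ran from 0.00 to 0.29 with 1 library left out. With the share of zero counts as a covariate it was -0.06.

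No member passed the threshold of adjusted p under 0.15 with all libraries, but the result for *Sgk1* moved with 1 library. Without replicate 16 of HFD → RC, which held 655 reads, the log2 fold change was 0.76 over RC → HFD (edgeR adjusted p 0.142) and 0.72 over RC NoDS (edgeR adjusted p 0.106), and *Sgk1* was then called in both comparisons. The same step raised the calls over all 12768 genes from 1 to 41 and from 36 to 205. The 36 fell to 1 without replicate 1, 2 or 5 of RC NoDS or replicate 13 or 14 of HFD → RC. Without replicate 15 of HFD → RC they fell to 2. Over all alternatives the log2 fold change of *Sgk1* ran from 0.51 to 0.76 over RC → HFD, with adjusted p from 0.142 to 1.00. Over RC NoDS it ran from 0.38, with the share of zero counts as a covariate, to 0.72, with adjusted p from 0.106 to 0.876. For the earlier diet it ran from 0.25, with the same covariate, to 0.45, with adjusted p from 0.232 to 1.00.

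Oligodendrocyte markers, like *Sgk1*, had their highest mean in HFD → RC. The summed counts of *Mbp*, *Mog*, *Mag* and *Cnp* were 63804, 90266, 50111, 27640 and 40157 in HFD → RC and 22897, 25944, 33044, 25038 and 37635 in RC NoDS. They were 37523, 65237, 32884, 60075 and 28459 in HFD NoDS and between 28061 and 41265 in RC → HFD. *Mbp* was the most abundant, with 31251 reads on average, and none of the 4 markers averaged under 1 read. HFD → RC over RC NoDS had 4 of the 4 higher at an unadjusted p under 0.05 in edgeR and 1 called, with a median log2 fold change of 0.74. HFD → RC over RC → HFD also had 4 of 4 higher at that p (median 0.60, 0 called), and so had HFD NoDS over RC NoDS (median 0.57, 0 called), where *Sgk1* was at 0.14. HFD NoDS over HFD → RC had 0 at that p (median -0.21). *Sgk1* was lowest within HFD → RC in the library where the markers were lowest, replicate 16. Over the 21 libraries with group means removed, *Sgk1* and the marker sum had r = 0.617 (permutation p 0.0167) and rho = 0.558 (permutation p 0.0282). Without the 2 libraries farthest from the median of the marker sum, r was 0.572. This was 1 of 140 relations of the members with marker sums and the share of zero counts, and its adjusted p was 0.413. The part of these cells in the counts of *Sgk1* was not tested, and in bulk tissue more cells of a type and more RNA per cell cannot be told apart.

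The metallothioneins *Mt1* and *Mt2* bind zinc and copper and respond to metals as well as to glucocorticoids. They lie close together on chromosome 8 (*Mt2*, ENSMUSG00000031762, at chr8:96696518-96697467 and *Mt1*, ENSMUSG00000031765, at chr8:96702989-96704225, both on the plus strand), and their exons share no stretch of 50 bases, 0 of 752 such stretches in *Mt1* and 0 of 507 in *Mt2*. *Mt2* counts were 2288, 1614, 2375, 2531 and 2436 in RC NoDS (mean 2249 ± 366, SD, n = 5) and 2836, 2479, 1863, 1727 and 2338 in HFD → RC (2249 ± 455, n = 5). On HFD they were 1647, 1831, 2010, 2232 and 1755 in HFD NoDS (1895 ± 230, n = 5) and ran from 1547 through a median of 1830 to 2128 in RC → HFD (1835 ± 192, n = 6). No library on HFD at collection exceeded 2232 reads, whereas 7 of the 10 libraries on RC at collection did, and replicate 2 of RC NoDS and replicates 15 and 16 of HFD → RC fell within the HFD range.

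*Mt1* followed a similar order with more overlap. Its counts were 4001, 3078, 4806, 4120 and 4414 in RC NoDS (4084 ± 642, SD, n = 5) and 4885, 4449, 4380, 3298 and 3647 in HFD → RC (4132 ± 644, n = 5). On HFD they were 3521, 4026, 3647, 3835 and 2933 in HFD NoDS (3592 ± 415, n = 5) and ran from 3033 through a median of 3535 to 4320 in RC → HFD (3566 ± 419, n = 6). In all, 5 of the 10 libraries on RC at collection exceeded every library on HFD.

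Averaged over both earlier diets, HFD at collection relative to RC at collection gave a log2 fold change of -0.26 for *Mt2* (SE 0.0845, 95% interval -0.43 to -0.09, rank 74 of 12768 by p, edgeR adjusted p 0.745). The same contrast gave -0.19 for *Mt1* (SE 0.0784, 95% interval -0.35 to -0.03, edgeR adjusted p 0.892). Between the switched groups, HFD → RC over RC → HFD was 0.29 for *Mt2* (SE 0.117, edgeR adjusted p 0.899) and 0.21 for *Mt1* (SE 0.108, edgeR adjusted p 0.956). For *Mt2*, RC → HFD over RC NoDS was -0.27 (SE 0.117, edgeR adjusted p 0.701) and HFD NoDS over HFD → RC was -0.25 (SE 0.122, edgeR adjusted p 0.618), and these comparisons share groups with those above. HFD NoDS over RC NoDS was -0.23 for *Mt2* (SE 0.122, edgeR adjusted p 0.679) and -0.17 for *Mt1* (SE 0.113, edgeR adjusted p 0.729). None of these differences passed the threshold. Without replicate 13 of HFD → RC, *Mt2* was at 0.19 for HFD → RC over RC → HFD (edgeR adjusted p 0.998) and -0.15 for HFD NoDS over HFD → RC (edgeR adjusted p 0.809), and neither was then under an unadjusted p of 0.05. This library also had the highest marker sums of all libraries for blood (6760) and pituitary (2816). *Mt2* was likewise not under an unadjusted p of 0.05 for HFD → RC over RC → HFD without replicate 14 of HFD → RC. Without replicate 3 of RC NoDS, *Mt1* was at -0.10 for HFD NoDS over RC NoDS (edgeR adjusted p 0.873).

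Blood markers, like *Mt2*, had lower group means on HFD than on RC at collection. The summed counts of *Hba-a1*, *Hba-a2*, *Hbb-b1*, *Hbb-b2* and *Alas2* were 3481, 4547, 4314, 3724 and 3348 in RC NoDS and 6760, 2361, 2664, 676 and 3537 in HFD → RC. They were 1578, 4340, 1550, 3174 and 2052 in HFD NoDS and 1817, 2122, 2118, 1057, 1917 and 1244 in RC → HFD. *Hbb-b1* was the most abundant, with 1437 reads on average, and none of the 5 markers averaged under 1 read. For the diet at collection edgeR called 0 of the 5 and had 5 at an unadjusted p under 0.05, each lower on HFD, with a median log2 fold change of -0.80. HFD → RC over RC → HFD likewise had 0 called and 5 at an unadjusted p under 0.05, each higher, with a median of 0.91. HFD NoDS over HFD → RC had 0 of 5 at that p (median -0.26), where *Mt2* was at -0.25, and HFD NoDS over RC NoDS had 1 of 5, *Hbb-b1* (median -0.64), each with 0 called. Over the 21 libraries with group means removed, the blood sum had r = 0.409 with *Mt2* (permutation p 0.142, adjusted p 0.556; rho = 0.195, permutation p 0.441, adjusted p 0.772) and r = 0.363 with *Mt1* (permutation p 0.164, adjusted p 0.556; rho = 0.194, permutation p 0.421, adjusted p 0.759). Without the 2 libraries farthest from the median of the blood sum, r was -0.0591 with *Mt2* and -0.0254 with *Mt1*. With *Sgk1*, which was also higher in HFD → RC than in RC → HFD, the blood sum had r = 0.597 (permutation p 0.0159, adjusted p 0.413; rho = 0.422, permutation p 0.0912, adjusted p 0.689), and 0.390 without the same 2 libraries. The part of blood in the counts of these genes was not tested.

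*Fkbp5* encodes a co-chaperone that lowers the receptor's affinity for hormone (ENSMUSG00000024222, chr17:28536040-28654469, minus strand). Its counts were 1171, 1282, 2027, 1835 and 1462 in RC NoDS (1555 ± 365, SD, n = 5) and 1007, 2049, 1487, 1208 and 1394 in HFD NoDS (1429 ± 392, n = 5). They were 1392, 1387, 1223, 1149 and 1436 in HFD → RC (1317 ± 124, n = 5) and ran from 1210 through a median of 1328 to 1517 in RC → HFD (1364 ± 128, n = 6). The lowest and the highest count both came from HFD NoDS, replicates 19 and 20, and the groups overlapped throughout. Log2 fold changes were -0.10 for HFD NoDS over RC NoDS (SE 0.147, 95% interval -0.40 to 0.20) and -0.05 for HFD → RC over RC → HFD (SE 0.141). With 1 library left out, the first ran from -0.28 to 0.01.

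*Tsc22d3*, also called *Gilz*, encodes a leucine zipper protein that mediates anti-inflammatory effects of glucocorticoids (ENSMUSG00000031431, chrX:137074067-137135198, minus strand). Counts were 1911, 1745, 2080, 2518 and 1714 in RC NoDS (1994 ± 328, SD, n = 5) and 1237, 2105, 1762, 1769 and 1778 in HFD NoDS (1730 ± 312, n = 5). They were 1961, 1860, 1702, 1747 and 2393 in HFD → RC (1933 ± 276, n = 5) and ran from 1593 through a median of 1738 to 2185 in RC → HFD (1824 ± 264, n = 6). Replicate 19 of HFD NoDS was again the lowest library, 1237 reads against 1593 or more elsewhere, and the ranges of the other libraries overlapped. Log2 fold changes were -0.19 for HFD NoDS over RC NoDS (SE 0.126) and 0.08 for HFD → RC over RC → HFD (SE 0.120). The first was -0.08 without replicate 5 of RC NoDS, and the second was 0.00 without replicate 17 of HFD → RC.

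*Zbtb16*, which encodes the zinc finger repressor PLZF, was the most variable member (ENSMUSG00000066687, chr9:48462416-48644050, minus strand). Its counts were 209, 248, 599, 821 and 294 in RC NoDS (434 ± 265, SD, n = 5) and 152, 540, 348, 418 and 345 in HFD NoDS (361 ± 141, n = 5). They were 470, 316, 273, 306 and 366 in HFD → RC (346 ± 76.8, n = 5) and ran from 150 through a median of 337 to 464 in RC → HFD (322 ± 119, n = 6). Replicates 3 and 5 of RC NoDS were the highest libraries, and the RC NoDS group held both these and some of the lowest. The spread within a group exceeded the differences between groups, with log2 fold changes of -0.25 for HFD NoDS over RC NoDS (SE 0.324, 95% interval -0.92 to 0.41) and 0.10 for HFD → RC over RC → HFD (SE 0.312). With 1 library left out, the first ran from -0.46 to 0.12 and the second from -0.04 to 0.23.

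*Klf9* encodes a Krüppel-like transcription factor (ENSMUSG00000033863, chr19:23215716-23241401, plus strand), and its counts ran from 1233 in RC → HFD to 2083 in RC NoDS. Its group means were 1714 ± 277 in RC NoDS, 1550 ± 222 in RC → HFD, 1551 ± 138 in HFD → RC and 1483 ± 119 reads in HFD NoDS (SD). HFD NoDS over RC NoDS gave a log2 fold change of -0.19 (SE 0.108, edgeR adjusted p 0.683), or -0.11 without replicate 5 of RC NoDS (edgeR adjusted p 0.797), and the switched groups differed by 0.00 (SE 0.103).

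*Sult1a1* encodes a phenol sulfotransferase and was the least abundant member by reads (ENSMUSG00000030711, chr7:133816379-133819946, minus strand). Its locus overlaps *Ccdc101* on the opposite strand, and 12 of its 1549 stretches of 50 exonic bases, 0.775%, also occur in that gene. Means were 176 ± 67.5 in RC NoDS, 123 ± 36.2 in RC → HFD, 122 ± 43.9 in HFD → RC and 164 ± 55.5 reads in HFD NoDS (SD), with 57 to 251 reads in single libraries. The term for an interaction of current and earlier diet was 0.92 (SE 0.446, 95% interval 0.01 to 1.83, edgeR adjusted p 0.561), while the log2 fold changes were -0.08 for HFD NoDS over RC NoDS (SE 0.320) and -0.01 for HFD → RC over RC → HFD (SE 0.310).

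Markers of meninges and fibroblasts had higher means without a switch than with one, as had *Sult1a1*. The summed counts of *Dcn*, *Lum*, *Col1a1*, *Igf2* and *Slc22a6* were 1482, 3383, 3994, 2377 and 5066 in RC NoDS (mean 3260) and 774, 5537, 2628, 3786 and 3271 in HFD NoDS (3199). They were 2546, 1732, 412, 669 and 3486 in HFD → RC (1769) and 1595, 1283, 1908, 719, 2602 and 1145 in RC → HFD (1542). *Igf2* was the most abundant, with 1374 reads on average, and none of the 5 averaged under 1 read. For the interaction of both diets edgeR called 0 of the 4 tested and had 4 at an unadjusted p under 0.05, each above 0, with a median of 1.87. Other lists also had genes at that p for the interaction with 0 called, among them 3 of 5 neuron markers (median -0.30), 3 of 4 ventromedial markers (median -0.64) and 2 of 4 pituitary markers (median -3.76), all below 0. Over the 21 libraries with group means removed, *Sult1a1* and the sum of these markers had r = 0.399 (permutation p 0.102, adjusted p 0.550) and rho = 0.326 (permutation p 0.185, adjusted p 0.689). Without the 2 libraries farthest from the median of this sum, r was 0.298. Replicate 17 of HFD → RC had the lowest *Sult1a1* count of its group and the highest marker sum. The part of these cells in the counts of *Sult1a1* was not tested.

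The comparison of RC NoDS with HFD NoDS asked which genes moved with obesity. EdgeR called 0 of 10 members at an adjusted p under 0.15, against 0.0783% of the 12768 genes tested, and 0 of 10 at an unadjusted p under 0.05, against 7.41%. DESeq2, limma-voom and limma-trend also called 0, and had 0 at an unadjusted p under 0.05. Under other alternatives, still with 0 called, there were 3 at that p without replicate 20 of HFD NoDS (*Fkbp5*, *Tsc22d3* and *Klf9*), 2 without replicate 2 of RC NoDS (*Mt1* and *Mt2*) and 2 with the share of zero counts as a covariate (*Tsc22d3* and *Klf9*). The log2 fold change was above 0 for *Sgk1*, 0.00 for *Nr3c2* and below 0 for the other 8 members, and the median of the log2 fold changes of the 10 was -0.15 against 0.01 over all genes tested. Of the 2 markers of the lateral hypothalamus, *Hcrt* was called higher in HFD NoDS (log2 fold change 2.71, SE 0.557, edgeR adjusted p 0.0513), and *Pmch*, the more abundant with 1079 reads on average, was not (0.47, SE 0.390, edgeR adjusted p 0.768). Their summed counts were 1003, 1827, 696, 439 and 378 in RC NoDS and 678, 2344, 2013, 753 and 2003 in HFD NoDS, and between 791 and 2400 in the switched groups. The study had kept only punches with 5-fold more *Agrp* and *Pomc* than *Hcrt*, and it described *Hcrt* as similar in its groups. The part of these neurons, or of the oligodendrocytes given above, in the values of the members was not tested.

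RC → HFD and HFD → RC were compared because the study found their body weights alike while their diets and energy balance were opposed. There edgeR called 0 of 10 members (0.00783% of genes) and had 2 at an unadjusted p under 0.05, *Sgk1* and *Mt2* (5.35% of genes), as did DESeq2, limma-voom and limma-trend with 0 called. The median log2 fold change of the members was 0.04 against 0.00 over all genes.

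In the other pairs of groups, edgeR again called 0 of 10 members each time, and so did DESeq2, limma-voom and limma-trend. RC NoDS against RC → HFD had 1 member at an unadjusted p under 0.05, *Mt2*, in all 4 tools, with 0.0392% of genes called by edgeR and 6.51% under that unadjusted p. All 10 members had a lower fitted mean in RC → HFD, with a median log2 fold change of -0.14 against 0.00 over all genes. Several target genes varied together between libraries, as given below, so these 10 directions were not independent. In the same comparison all 5 blood markers and all 4 tested markers of meninges and fibroblasts were lower in RC → HFD at an unadjusted p under 0.05, with median log2 fold changes of -1.18 and -1.07 and 0 called by edgeR. Higher in RC → HFD at that p, with 0 called, were 3 of 5 neuron markers (median 0.13, summed means of 32326 and 34923 reads), 2 of 5 endothelial markers (median 0.11, 2160 and 2389 reads) and 2 of 2 lateral hypothalamus markers (median 1.18, 869 and 1655 reads). So were 1 of 5 arcuate markers, 1 of 4 ventromedial markers and 1 of 4 tested pituitary markers, with 0 called higher. EdgeR called 2 other arcuate markers lower. The part of these cells in the lower means of the members was not tested. RC NoDS against HFD → RC had 1, *Sgk1*, in all 4 tools (0.282% and 8.1% of genes by edgeR). RC → HFD against HFD NoDS had 0 in all 4 tools (0.0157% and 7.49% of genes by edgeR). HFD → RC against HFD NoDS had 2 in edgeR, *Sgk1* and *Mt2*, and 1 in each of the other tools (0.0705% and 7.93% of genes by edgeR).

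Over all 4 groups, edgeR called 0 of 10 members (0.149% of genes), with 2 at an unadjusted p under 0.05, *Sgk1* and *Mt2* (7.97%), 2 also in DESeq2 and limma-trend and 1 in limma-voom, each with 0 called. For the diet at collection it called 0 (0.047%), with 2 at an unadjusted p under 0.05, *Mt2* and *Mt1*, in each tool (5.22%). For the earlier diet it called 0 (0.0705%), with 1 at an unadjusted p under 0.05, *Sgk1*, in each tool (7.27%), whose log2 fold change was 0.38 (SE 0.144, edgeR adjusted p 0.601). In that comparison edgeR also had 4 of 4 oligodendrocyte markers higher at that p with 1 called (median 0.58), and it called 1 of 5 astrocyte markers higher, *Gfap* (log2 fold change 0.73, SE 0.151, edgeR adjusted p 0.0891), while the median of the 5 was 0.09. The part of these cells in the difference of *Sgk1* was not tested. For the interaction of both diets it called 0 (0.0313%), with 1 at an unadjusted p under 0.05, *Sult1a1* (8.84%), 1 also in DESeq2 and 0 in limma-voom and limma-trend, which called 0 as well. The counts of members under an unadjusted p of 0.05 were thus between 0 and 2 of 10 in each comparison, where the share over all genes ran from 5.22% to 8.84%.

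Several target genes varied strongly between libraries of the same group. After removal of group means, the SD of log2 CPM (counts scaled to library size) was 0.61 for *Zbtb16*, 0.53 for *Sult1a1* and 0.39 for *Sgk1*, against a median of 0.21 over all tested genes and 0.11 for *Nr3c1*. Among genes of like abundance, this spread exceeded that of 99.3% for *Zbtb16*, 99.3% for *Sgk1*, 95.9% for *Fkbp5*, 94.4% for *Mt1*, 93.4% for *Mt2*, 93.2% for *Tsc22d3* and 93.1% for *Sult1a1*. *Klf9* (76.6%) and *Nr3c2* (69.1%) were nearer the middle, and *Nr3c1* (24.2%) lay below it. Over all 21 libraries, so across groups, the highest library exceeded the lowest 5.47-fold for *Zbtb16*, 4.40-fold for *Sult1a1* and 2.97-fold for *Sgk1*, but 1.53-fold for *Nr3c1*.

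Some of these targets varied together. Of the 45 pairs of members, 30 had a positive Pearson r over the 21 libraries after removal of group means, and the median r was 0.340, against -0.00323 for the members with all tested genes. In 10 of the 45, r had a permutation p under 0.05 after adjustment over the 45 pairs, and all 10 were positive pairs of target genes. In these 10, the share of tested genes with an r as high ran from 0.0157% (*Sgk1* with *Tsc22d3*) to 3.24% (*Mt1* with *Sgk1*).

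*Sgk1* and *Tsc22d3* had the highest correlation, r = 0.792 (permutation p 4e-05, adjusted p 0.0018) and rho = 0.775 (permutation p 5e-05, adjusted p 0.00225). Without the 2 libraries farthest from the median of *Sgk1*, replicate 16 of HFD → RC and replicate 19 of HFD NoDS, r was 0.751, and 0.0157% of all tested genes had an r with *Sgk1* as high as that of *Tsc22d3*. Libraries above their group mean in one gene were mostly above it in the other, among them RC NoDS replicate 5 and HFD NoDS replicate 20. *Tsc22d3* and *Zbtb16* had r = 0.791 (permutation p 0.00022, adjusted p 0.0033) and rho = 0.812 (permutation p 0.00023, adjusted p 0.00517), with r = 0.672 without the 2 farthest libraries. *Sgk1* and *Mt2* had r = 0.749 (permutation p 0.00018, adjusted p 0.0033) and rho = 0.732 (permutation p 0.00054, adjusted p 0.0081), with r = 0.685 without the 2 farthest libraries.

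*Fkbp5* and *Zbtb16* had r = 0.732 (permutation p 0.00319, adjusted p 0.0237) and rho = 0.708 (permutation p 0.00418, adjusted p 0.0256), and r = 0.651 without replicates 19 and 20 of HFD NoDS. Within single groups, r was 0.935 in RC NoDS, 0.205 in RC → HFD, 0.601 in HFD → RC and 0.817 in HFD NoDS. Leaving out replicate 19 of HFD NoDS alone gave r = 0.662 with an adjusted p of 0.0561, which ended the call. *Fkbp5* and *Tsc22d3* had r = 0.681 (permutation p 0.00450, adjusted p 0.0253) and rho = 0.632 (permutation p 0.00901, adjusted p 0.0405). Within the groups in the same order, r was 0.683, 0.200, 0.745 and 0.896. This relation rested on replicates 19 and 20 of HFD NoDS, without which r was 0.507 (permutation p 0.0614), and its call also ended without replicate 19 alone (r = 0.584, adjusted p 0.0610), replicate 20 alone (r = 0.606, adjusted p 0.0602) or replicate 2 of RC NoDS (r = 0.662, adjusted p 0.0504).

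*Mt1* and *Mt2* had r = 0.684 (permutation p 0.00544, adjusted p 0.0272) and rho = 0.666 (permutation p 0.00405, adjusted p 0.0256). Of all tested genes, 1.16% had an r as high with *Mt1* and 0.180% with *Mt2*. The relation rested on replicate 2 of RC NoDS and replicate 16 of HFD → RC, both low in *Mt1* and *Mt2*, without which r was 0.461 (permutation p 0.0830). Left out alone, replicate 2 of RC NoDS (r = 0.555, adjusted p 0.121), replicate 12 of RC → HFD (r = 0.651, adjusted p 0.0750), and replicates 13 (r = 0.638, adjusted p 0.0612) and 16 (r = 0.615, adjusted p 0.0750) of HFD → RC each ended the call. The count of called pairs was 5 without replicate 19 of HFD NoDS, the library that was lowest in *Fkbp5*, *Sgk1* and *Tsc22d3*.

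**Figure D2:**
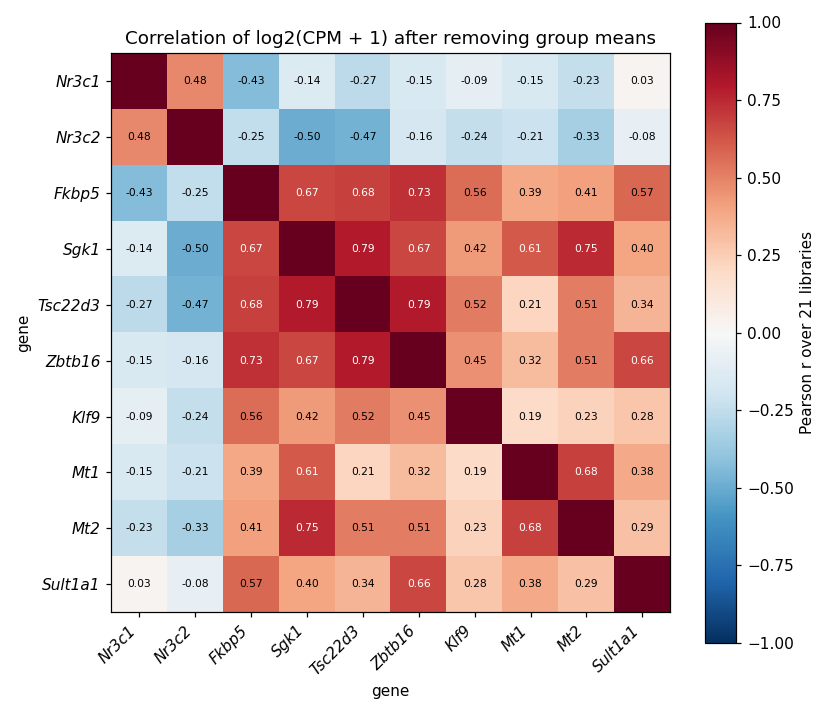
Pearson r between each pair of the 10 members over 21 libraries, from log2(CPM + 1) with the group mean removed. *Fkbp5*, *Sgk1*, *Tsc22d3* and *Zbtb16* form a block of r from 0.666 to 0.792, while the rows of *Nr3c1* and *Nr3c2* are mostly below 0.

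No receptor was correlated with a target gene past the threshold. *Nr3c2* had the lowest correlations, r = -0.497 with *Sgk1* (permutation p 0.0538, adjusted p 0.127; rho = -0.5, permutation p 0.0487, adjusted p 0.102) and r = -0.475 with *Tsc22d3* (permutation p 0.0510, adjusted p 0.127; rho = -0.466, permutation p 0.0319, adjusted p 0.0830). Without the 2 libraries farthest from the median of *Nr3c2* these were -0.556 and -0.524. For *Nr3c1*, r with the 8 target genes ran from -0.433 with *Fkbp5* (permutation p 0.173, adjusted p 0.291; rho = -0.403, permutation p 0.133, adjusted p 0.201) to 0.0277 with *Sult1a1*. Without the 2 libraries farthest from the median of *Nr3c1*, replicate 20 of HFD NoDS and replicate 2 of RC NoDS, it ran from -0.120 with *Fkbp5* to 0.257 with *Mt1*, and *Sgk1* (0.171), *Zbtb16* (0.117) and *Klf9* (0.0920) also turned positive. None of the 17 pairs that held a receptor had an adjusted permutation p under 0.05.

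**Figure D3:**
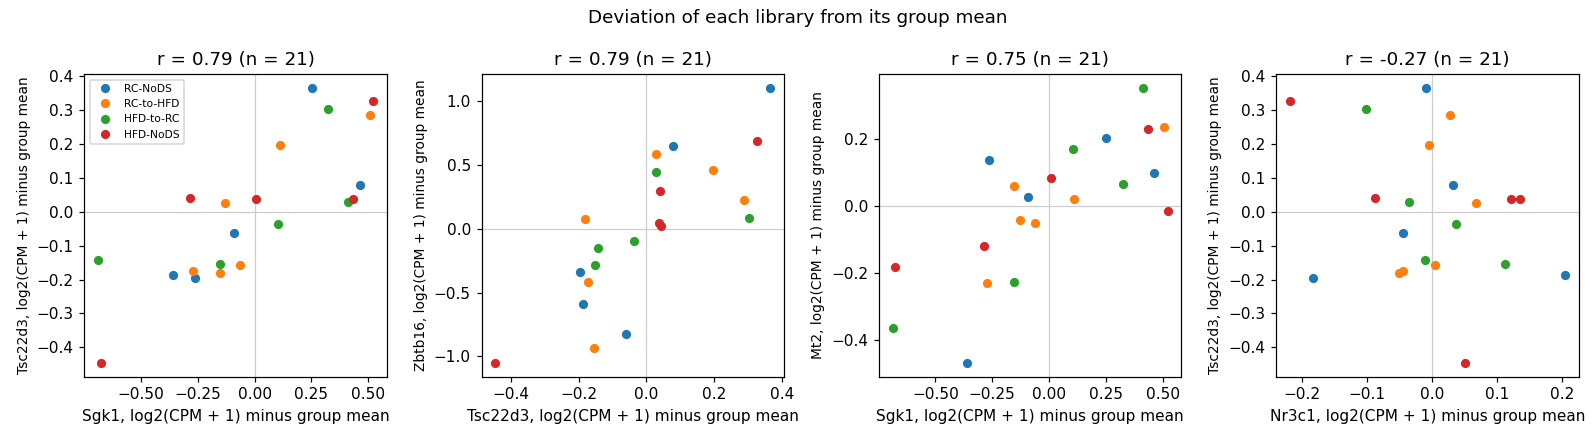
Deviation of each of the 21 libraries from its group mean, in log2(CPM + 1), for *Sgk1* and *Tsc22d3*, *Tsc22d3* and *Zbtb16*, *Sgk1* and *Mt2*, and *Nr3c1* and *Tsc22d3*, with dots coloured by diet group. Libraries of all 4 groups spread along the diagonal in the first 3 panels, and the r of *Nr3c1* and *Tsc22d3* is -0.265, or -0.00779 without replicate 20 of HFD NoDS and replicate 2 of RC NoDS.

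The members were also related to sums of marker genes for 13 cell types or regions and to the share of zero counts. None of these 140 relations passed an adjusted p of 0.05, and the smallest was 0.202 for r and 0.256 for rho. The highest r was that of *Mt1* with the oligodendrocyte markers, r = 0.676 (permutation p 0.00144) and rho = 0.687 (permutation p 0.00183). Without the 2 libraries farthest from the median of that marker sum, r was 0.632. *Nr3c2* had the lowest r with the share of zero counts, -0.567 (permutation p 0.0304, rho = -0.469, permutation p 0.0716), and -0.409 without the 2 libraries farthest from the median of that share. The part of library complexity in the levels of the members was not tested.

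Among all tested genes, those most like *Sgk1* over the 21 libraries were *Elovl1* (r = 0.823), *Tsc22d3* (0.792), *Sgms1* (0.780), *Cpm* (0.779) and *Hapln2* (0.777), given as a description. Those most like *Tsc22d3* were *Cdkn1a* (r = 0.820), *Sgk1* (0.792), *Zbtb16* (0.791), *Hr* (0.789) and *Sgms1* (0.781). *Sgk1* (0.749) was also the fifth nearest to *Mt2*, after *Exosc10* (r = 0.807), *Elovl1* (0.80), *Arl4d* (0.768) and *Eci1* (0.749). *Fkbp5* was nearest to *Htra1* (r = 0.830), *Klf13* (0.820), *Tenc1* (0.804), *Pim3* (0.789) and *Sdc4* (0.783). *Nr3c1* was nearest to *9930021J03Rik* (r = 0.835), *Ttf1* (0.823), *Pde10a* (0.815), *Ppp2r3a* (0.812) and *Qk* (0.774). Of the 10 members, 4 had another member among their 5 nearest genes, *Sgk1*, *Tsc22d3*, *Zbtb16* and *Mt2*, and the other 6 had none.

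The promoter sequences of members were searched for the letters of known elements. A part of these letters in the correlations between members was not tested. Promoter windows of 300 bases came from RefSeq (table of GRCm38.p6), with 15 windows for the 8 members searched, all but *Nr3c1* and *Zbtb16*, and each of the 15 matched the NCBIM37 genome exactly at 1 place. The motifs were searched on both strands, and their shares were taken over all 32851 windows of the table. The palindrome of the glucocorticoid response element, AGAACA and its reverse complement TGTTCT set 3 bases apart, was in 3 windows of the table (0.00913%), and 1 of these was the fifth of the 6 windows of *Sgk1*, where the match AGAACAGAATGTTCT began 189 bases before the transcription start. A looser form within it, GNACA and TGTNC set 3 bases apart, was in 156 windows (0.475%), among them the same place of *Sgk1* and GGACATGATGTTC of *Mt1*, 94 bases before its start. The hexamer AGAACA, an arm of the palindrome and so overlapping it in *Sgk1*, was in 6233 windows (19.0%) and in windows of *Sgk1*, *Tsc22d3* and *Sult1a1*.

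The core of metal response elements was searched as TGCACNC, found in 4136 windows (12.6%), and as TGCGCNC, found in 5055 (15.4%). *Mt1* and *Mt2* were the 2 members with TGCACNC, with 2 matches each. TGCGCNC was in windows of *Mt2*, *Mt1*, *Nr3c2* and *Sgk1*. The sequences show 280 bases up to 30 bases after the start for *Mt2* (chr8:96696268-96696547) and *Mt1* (chr8:96702739-96703018), with the metal cores of either strand in capitals, and for *Sgk1* (chr10:21713446-21713725), with the palindrome in capitals, all on the plus strand of NCBIM37. A match describes letters in a window and is not a measured binding site.
Mt2: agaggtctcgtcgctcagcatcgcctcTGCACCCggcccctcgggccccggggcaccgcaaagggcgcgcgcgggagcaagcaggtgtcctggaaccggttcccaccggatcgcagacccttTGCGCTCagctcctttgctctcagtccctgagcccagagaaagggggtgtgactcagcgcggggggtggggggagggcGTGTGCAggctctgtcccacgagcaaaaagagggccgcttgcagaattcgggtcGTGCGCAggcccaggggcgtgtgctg
Mt1: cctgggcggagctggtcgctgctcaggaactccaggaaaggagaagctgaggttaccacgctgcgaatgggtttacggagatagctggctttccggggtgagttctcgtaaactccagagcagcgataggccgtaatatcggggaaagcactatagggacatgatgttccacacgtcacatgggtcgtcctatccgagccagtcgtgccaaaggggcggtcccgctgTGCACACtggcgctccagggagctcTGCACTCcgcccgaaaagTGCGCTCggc
Sgk1: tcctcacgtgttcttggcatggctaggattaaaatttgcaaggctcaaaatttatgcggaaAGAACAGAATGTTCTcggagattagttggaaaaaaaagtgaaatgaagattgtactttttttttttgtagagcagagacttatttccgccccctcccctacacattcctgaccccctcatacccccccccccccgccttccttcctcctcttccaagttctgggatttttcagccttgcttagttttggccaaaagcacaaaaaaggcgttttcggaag

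The other genes of the pathway were taken from 8 lists with 74 genes, of which 66 passed the High Filter. EdgeR called 0 of the 66 in each of the 10 comparisons, with between 2 and 8 at an unadjusted p under 0.05, where the share over all genes ran from 5.22% to 8.84%. DESeq2 called 1, *Crhr1*, in HFD → RC against HFD NoDS and over all 4 groups, where it called 44 and 133 of all genes, and limma-voom and limma-trend called 0. Of 20 further glucocorticoid targets, of which *Fam107a* was the most abundant (5830 reads on average), *Plin4* had the smallest p in HFD NoDS over RC NoDS (log2 fold change 0.84, SE 0.313, edgeR adjusted p 0.640). The median log2 fold change of the 20 was 0.00 in that comparison and 0.16 for HFD → RC over RC → HFD, against 0.01 and 0.00 over all genes. At an unadjusted p under 0.05 there was 1 of the 20 in each of these 2 comparisons. HFD NoDS over RC → HFD had the most, 5 of 20, all higher (median 0.15, 0 called, 7.49% of all genes), and RC → HFD over RC NoDS had 2, both lower (median -0.12). In HFD NoDS over RC → HFD, 3 of 4 markers of meninges and fibroblasts and 1 of 5 blood markers were also higher at that p, and in HFD → RC over RC → HFD all 5 blood markers and all 4 oligodendrocyte markers were, as given above. The part of these cells in the values of the 20 was not tested.

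Of 10 chaperones that hold steroid receptors, *Hsp90ab1* was the most abundant (44631 reads) and *Stip1* had the smallest p (log2 fold change 0.16, SE 0.0662, edgeR adjusted p 0.656). Of 9 coregulators of nuclear receptors, *Smarca4* was the most abundant (3095 reads) and had the smallest p (log2 fold change 0.16, SE 0.0668, edgeR adjusted p 0.656). Of 7 genes of steroid supply 4 were tested, and *Abcb1a* was the most abundant (374 reads) and *Srd5a1* had the smallest p (log2 fold change 0.51, SE 0.210, edgeR adjusted p 0.656). On the stress axis 6 of 10 genes were tested, with *Avp* the most abundant and *Crhr1* the one with the smallest p, a log2 fold change of 0.49 (SE 0.159, edgeR adjusted p 0.640). *Crh* itself averaged 8.14 reads, and the receptor for corticotropin, *Mc2r*, had no row.

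For 7 genes of metal handling, *Mt3* was the most abundant (3589 reads) and *Slc39a10* had the smallest p in the same comparison, a log2 fold change of -0.20 (SE 0.113, edgeR adjusted p 0.683). Of 3 other steroid receptors 2 were tested, and *Esr1* was the most abundant (457 reads) and had the smallest p (log2 fold change -0.25, SE 0.179, edgeR adjusted p 0.735). *Klf13* was both the most abundant of 8 Krüppel-like factors (1519 reads) and the one with the smallest p (log2 fold change 0.14, SE 0.123, edgeR adjusted p 0.780).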

How the data were processed

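RNA-seq counts of 21 libraries, each from 2 pooled mice, were used as deposited. The authors aligned reads to mm9 with STAR 2.5.1b, merged runs with Picard 2.7.1, removed ribosomal and mitochondrial reads, re-sampled the libraries to a common depth and deposited whole counts per gene. Groups came from the sample names. The main test was the quasi-likelihood F test of edgeR 4.0.16 (R 4.3.3) after TMM scaling, with 1 mean per group, on genes averaging at least 50 reads. P-values were adjusted by the Benjamini-Hochberg method over all 12768 genes, and genes were called at an adjusted p under 0.15. Every log2 fold change is the second-named group over the first unless stated, and a value rounding to 0.00 was given no direction. RPKM used exon lengths of the Ensembl models. Correlations used log2(CPM + 1) with group means removed and 100000 permutations within groups, two-sided (numpy 2.4.6 and scipy 1.17.1 under Python 3.11.15), tables pandas 2.3.3 and figures matplotlib 3.10.9.

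All 10 members were named. Fold changes were given for each in the first 2 comparisons and elsewhere at an unadjusted p under 0.05. Named pairs were the 6 with the highest r, among them *Mt1* with *Mt2*, and the 2 with the lowest. Some pairs of *Nr3c1* with target genes were given as well. The genes most like *Nr3c1*, *Fkbp5*, *Tsc22d3*, *Sgk1* and *Mt2* were the 5 with the highest r. From each other list the most abundant gene and that with the smallest p in RC NoDS v HFD NoDS were named. Some genes were left out of these lists and of the marker sums and are not reported here. The members and lists were chosen with earlier results of these data known. Alternatives were DESeq2 1.42.0, limma 3.58.1 (voom and trend), other filters and scaling, a robust dispersion, only the 2 groups compared, the share of zero counts as a covariate, reads summed by symbol, an adjusted p under 0.05 and each library left out in turn. The tests were tested on simulated data. A check for duplicated libraries found none, with a chi-square per degree of freedom of at least 6.29 in 45 pairs within groups. The depth sets the counting error alone; libraries of a group also differ as pools of different animals.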

Additional observations from a re-analysis of the deposited data

Results flagged for a closer look

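Of 40 combinations of a member and a group, 1 held a library far from the rest, where chance gives about 1 in 20. In RC NoDS, replicate 2 had 1614 reads of *Mt2* and the nearest library 2288, a gap of 0.735 of the range of the 5 libraries. This library was also the lowest of its group for *Mt1*, with 3078 reads, and the highest of all libraries for *Nr3c1*, with 2233 reads.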

How the results depend on the processing

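With a library left out in turn, the number of members called ran from 0 to 1 for RC → HFD v HFD → RC and for RC NoDS v HFD → RC, the 1 being *Sgk1* without replicate 16 of HFD → RC (with 41 and 205 of all genes called), and was 0 in the other 8 comparisons. Every other alternative called 0 members in each comparison it could be run in. Over the libraries left out, log2 fold changes of HFD NoDS over RC NoDS ran from -0.28 to 0.01 for *Fkbp5*, from -0.29 to 0.11 for *Sult1a1* and from -0.46 to 0.12 for *Zbtb16*. Those of HFD → RC over RC → HFD ran from -0.04 to 0.02 for *Nr3c1*, from -0.14 to 0.17 for *Sult1a1* and from -0.04 to 0.23 for *Zbtb16*. Over all alternatives, HFD NoDS over RC NoDS ran from -0.18 to -0.07 for *Nr3c1*, from -0.11 to 0.24 for *Nr3c2*, from -0.33 to -0.08 for *Tsc22d3* and from -0.27 to -0.11 for *Klf9*, and HFD → RC over RC → HFD from -0.09 to 0.09 for *Nr3c2*, from -0.11 to 0.00 for *Fkbp5*, from 0.00 to 0.14 for *Tsc22d3*, from -0.06 to 0.07 for *Klf9* and from 0.14 to 0.28 for *Mt1*. With the share of zero counts as a covariate, signs turned for *Sgk1* (-0.06) and *Sult1a1* (0.03) in HFD NoDS over RC NoDS and for *Nr3c1* (0.01) and *Sult1a1* (0.02) in HFD → RC over RC → HFD. The cause was not tested. The other 272 of 276 values of fold changes under alternatives that kept all libraries, or the 2 groups compared, did not turn from one sign to the other and stayed on the same side of the threshold. Among them *Nr3c2*, at 0.00 in the main test of both comparisons, was at 0.24 in HFD NoDS over RC NoDS and 0.09 in HFD → RC over RC → HFD with that covariate. The number of members at an unadjusted p under 0.05 ran over all settings from 0 to 3 for RC NoDS v HFD NoDS, HFD → RC v HFD NoDS and all 4 groups, from 1 to 3 for RC → HFD v HFD → RC and RC NoDS v HFD → RC, from 0 to 2 for RC NoDS v RC → HFD, from 1 to 4 for the diet at collection and from 0 to 1 for the earlier diet and the interaction, and was 0 for RC → HFD v HFD NoDS. The number of correlated pairs ran from 5 to 13 over the libraries left out and from 10 to 14 under the other alternatives. Among the 66 genes of the other lists, under alternatives chosen after seeing the data, DESeq2 called 1 in HFD → RC v HFD NoDS and 1 over all 4 groups, *Crhr1* in both, and every other alternative called 0. No paired analysis was possible because the groups share no replicate numbers. Data were simulated with the group sizes of the study and the dispersions of all 12768 tested genes, and the changed genes were drawn at random. EdgeR recovered 54 of 100 changes of 0.50 and 91 of 100 changes of 1.00 in log2 between RC NoDS and HFD NoDS (5 libraries each), with 22 false calls. Most target genes varied more than most genes of like abundance, and recovery for the members was not simulated. Intervals for *Zbtb16* and *Sult1a1* were wide. RC NoDS and HFD NoDS did not overlap in library complexity, so diet and complexity cannot be told apart there.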

Other observations

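The wider pathway was also described by its correlation with the 8 target genes over the 21 libraries, with group means removed, a comparison chosen after values were seen and given with no p. For 20 further glucocorticoid targets, the median r over all pairs of a listed gene with a target was 0.423, against -0.00547 for all 12758 other tested genes. The median r of a single gene with the 8 targets was above 0 for 18 of 20, against 49.2% of those genes. *Arrdc2* had the highest such median of the list, 0.654. The same 20 genes had a median r of -0.229 with *Nr3c1* and *Nr3c2*, against 0.0071 over all genes. In the other lists this median ran from -0.282 for Krüppel-like factors to 0.196 for coregulators. Over all pairs with the 8 targets, Krüppel-like factors followed with a median r of 0.281, and *Klf13* had their highest median of a single gene, 0.551. The medians over all pairs were 0.116 for steroid supply, 0.0507 for the stress axis, -0.00786 for coregulators, -0.0338 for metal handling, -0.0456 for other steroid receptors and -0.134 for chaperones.

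Replicate 19 of HFD NoDS lay far below its group mean in several targets, with deviations of -1.05 for *Zbtb16*, -0.96 for *Sult1a1*, -0.68 for *Sgk1*, -0.45 for *Tsc22d3* and -0.45 for *Fkbp5* on the log2 scale. In the same group, replicate 20 lay above the mean by 0.69 for *Zbtb16*, 0.44 for *Sult1a1*, 0.52 for *Sgk1*, 0.33 for *Tsc22d3* and 0.58 for *Fkbp5*, while its *Nr3c1* lay at -0.22. Marker sums of replicates 19 and 20 were 774 and 5537 for meninges and fibroblasts, 1578 and 4340 for blood, 37523 and 65237 for oligodendrocytes, 52 and 370 for pituitary, 3336 and 17976 for the paraventricular nucleus and 678 and 2344 for the lateral hypothalamus, against 34232 and 35132 for neurons and 23319 and 25792 for astrocytes. Their shares of zero counts were 16.2% and 32.9%, and the part of any of these in the contrast was not tested. Within RC NoDS, replicates 3 and 5 were above the mean in *Fkbp5*, *Sgk1*, *Tsc22d3*, *Zbtb16*, *Klf9*, *Mt1*, *Mt2* and *Sult1a1*, and replicate 1 was below it in each of these but *Mt2* (0.03). These libraries were singled out after their values were seen.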
